A study of Oryza sativa with 12 samples.

Results

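Transcripts of 5 terpenoid synthesis genes of rice, CPS4, DTC1, MAS, CYP71Z7 and LIS, were followed across 4 genotypes of phosphate-starved plants. Rice makes labdane-related diterpenoids from geranylgeranyl diphosphate in the plastid: copalyl diphosphate synthases close the first rings, kaurene synthase-like (KSL) enzymes complete the skeleton, and cytochromes P450 and dehydrogenases decorate it. The products include the momilactones and the phytocassanes, antimicrobial phytoalexins that leaves accumulate after infection or ultraviolet light, while linalool is a volatile monoterpene that leaves emit after attack. CPS4 makes syn-copalyl diphosphate, the entry to the momilactones, and MAS is the dehydrogenase momilactone A synthase. DTC1, also called KSL7, makes ent-cassadiene, the hydrocarbon behind the phytocassanes, CYP71Z7 is a P450 of the phytocassane route, and LIS is a linalool synthase.

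The 5 genes were chosen by their readout in the same arrays, as terpenoid steps silent in the wild type (WT) and high in the triple mutant. They were identified through the array annotation, by symbol or synonym with or without the prefix Os, and were represented by 6 probe sets, 1 each and 2 for DTC1, among 17905 annotated genes and 57194 probe sets that are not controls. The values that chose them, WT and triple mutant, are therefore given as a description with no test. The single mutants took no part in the choice, so phr3 against phr1 is the comparison independent of it, while the comparisons of phr1 and of phr3 with WT reuse the WT values.

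RNA was measured on 12 Affymetrix rice arrays, 3 biological repeats for each of 4 genotypes: WT, which the titles name as Nipponbare, phr1 and phr3, each a single mutant, and phr123, the triple mutant of PHR1, PHR2 and PHR3. The PHR proteins are related MYB transcription factors that act on phosphate starvation genes. Every plant, WT included, grew in hydroponic culture for 14 days with 200 µM phosphate and then for 7 days without it, so all values are from starved plants. The tissue label reads leaf and the protocol reads shoot. The labels give neither the background of the mutants nor whether a line goes back to 1 allele, and neither plants with phosphate nor a single mutant of PHR2 were analysed here.

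All 12 arrays had been scaled to a trimmed mean signal of 500.1, and their median signals ran from 56.6 to 85.6. An array's level of no signal was taken as the 95th percentile of its 64 reporter controls, which carry marker sequences from other organisms, and it ran from 51.0 to 114.8. A probe set at or below that level on an array is called not above background there. PHR1 had 1042 ± 146 in WT, 493 ± 79.8 in phr1 and 711 ± 126 in phr123, so its transcript was still measured in both mutants, PHR3 had 439 ± 45.8 in WT and 90.4 ± 30.8 in phr3, and PHR2 had 28.8 ± 13.3 in phr123 against 1865 ± 147 in WT (mean ± SD, n = 3). The array labelled phr123 replicate 1 stood apart, with a PHR3 signal of 1186.6 against 172.6 and 118.3 on the other phr123 arrays, so the phr123 differences of the members from WT and the counts over gene lists and neighbours are also given without it. In whole shoots, fewer cells of a type and less RNA per cell cannot be told apart.

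CPS4 (LOC4335090, chromosome 4) was bright only on the 3 phr123 arrays. Its signal was 7.1, 20.1 and 45.7 in WT, 5.2, 4.4 and 56.3 in phr1, 14.6, 44.1 and 48.3 in phr3, and 1099.8, 1030.8 and 1020.7 in phr123. All 9 arrays of WT and the single mutants were not above background, and the lowest phr123 array had 18.1 times the signal of the highest other array. The mean was 24.3 ± 19.6 in WT and 1050 ± 43.1 in phr123 (SD, n = 3). Set against the background level, phr123 was at least 18.1-fold above WT, at least 13.4-fold above phr1 and at least 17.9-fold above phr3. The first bound was 17.7-fold without the array labelled phr123 replicate 1.

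MAS (LOC4335093, chromosome 4), at the other end of the momilactone route, showed the same division of the arrays. Its signal was 50, 27.9 and 30.1 in WT, 10.7, 61.8 and 63.2 in phr1, 20.8, 67.1 and 61.1 in phr3, and 1562.8, 855.5 and 829.7 in phr123. No WT or phr1 array was above background, and 1 phr3 array was. Within phr123 the array labelled replicate 1 was the highest, and the spread was wide, with a mean of 1083 ± 416 (SD, n = 3) against 36.0 ± 12.2 in WT. The difference came to at least 17.9-fold over WT, and to at least 14.5-fold without that array.

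DTC1 (LOC4329724, chromosome 2) had 2 probe sets that did not behave alike. The brighter read 27.4, 4.1 and 10 in WT, 74.7, 87.8 and 4.1 in phr1, 39.4, 73.7 and 32.7 in phr3, and 649.9, 818.6 and 778.9 in phr123. The lowest phr123 array had 7.40 times the signal of the highest other array, and the phr123 mean of 749 ± 88.2 was at least 12.9-fold above the WT background level, or at least 13.8-fold without the array labelled replicate 1. The dimmer read 1.7, 41.4 and 4.1 in WT, 24.4, 2.1 and 47.2 in phr1, 1.7, 30.8 and 27.4 in phr3, and 30.7, 46.1 and 33.5 in phr123. It was not above background on any of the 12 arrays, so a high DTC1 signal in phr123 rests on 1 of its 2 probe sets, and no fold is given for the other.

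CYP71Z7 (LOC4329726, chromosome 2) was not silent in WT. Its signal was 136.7, 318.3 and 461.5 in WT, 177.9, 270.7 and 208.6 in phr1, 84.1, 97.2 and 177.9 in phr3, and 12873.6, 13205.6 and 13199.5 in phr123. All 3 WT arrays were above background, and they reached from below every phr1 array to above every phr1 and phr3 array. The phr123 arrays lay close together, with an SD of 190 that was 1.45% of their mean of 13093. The geometric mean in phr123 was 48.2 times that of WT, 60.7 times that of phr1 and 116 times that of phr3, and the first of these was 48.6 without the array labelled replicate 1.

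LIS (LOC4328124, chromosome 2) was also above background on all 3 WT arrays. Its signal was 111.0, 172.6 and 159.9 in WT, 127.9, 22.5 and 254.2 in phr1, 43.1, 465.6 and 2160.2 in phr3, and 6495.3, 7847.7 and 7480.4 in phr123. The phr3 arrays were spread from below the lowest WT array to far above the highest, and the lowest phr123 array had 3.01 times the signal of phr3 replicate 3. The geometric mean in phr123 was 49.9 times that of WT, or 52.8 times without the array labelled replicate 1, 80.5 times that of phr1 and 20.6 times that of phr3. The description silent in WT therefore holds on this background level for CPS4, MAS and DTC1, and not for CYP71Z7 and LIS.

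**Figure D1:**
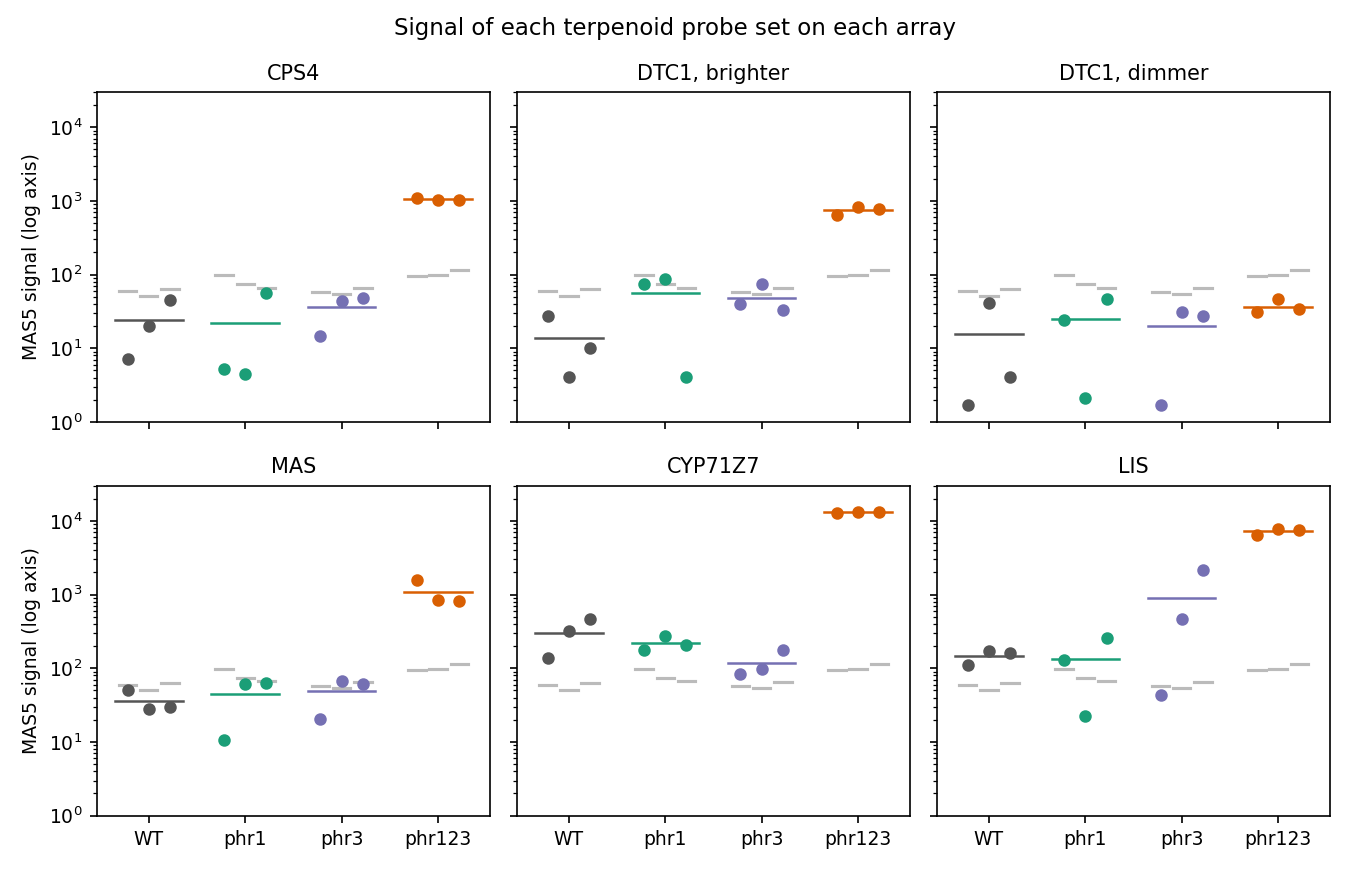
Signal of the 6 probe sets of the 5 genes on each of the 12 arrays, by genotype, on a log scale. In each panel except that of the dimmer DTC1 probe set the 3 phr123 arrays lie above the other 9 arrays, and for LIS the phr3 arrays reach from 43.1 to 2160.2.

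The single mutants were compared with limma on log2 signal over 28597 probe sets, those with a mean log2 signal of at least the median of all probe sets, with Benjamini-Hochberg adjustment over all of them and a threshold of 0.05. The dimmer DTC1 probe set fell below that filter. CPS4, MAS and the brighter DTC1 probe set passed it only through their phr123 arrays, as their mean log2 signals without phr123 were 4.21, 5.23 and 4.60 against a filter of 5.63. Signals of these 3 probe sets outside phr123 were almost all at background, so the lack of a call for them in the single mutants says nothing about a change. None of the 5 tested member probe sets was called in phr1 against WT, where 0.934% of all probe sets tested were called, in phr3 against WT (1.99%) or in phr3 against phr1 (1.68%). At an unadjusted p under 0.05 limma had 0, 1 and 1 of the 5 in these comparisons, CYP71Z7 both times.

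In the comparison independent of the choice, CYP71Z7 had a mean of 120 ± 50.8 in phr3 and 219 ± 47.3 in phr1 (SD, n = 3). The log2 difference of phr3 from phr1 was -0.93 (95% interval -1.71 to -0.15, limma adjusted p = 0.262), and it did not pass. Against WT, whose values took part in the choice, the log2 difference was -1.26 in phr3 (limma adjusted p = 0.114) and -0.33 in phr1 (limma adjusted p = 0.831), and both ranges overlapped that of WT. The value for phr3 against WT depended on WT replicate 1, without which it was -1.76 (limma adjusted p = 0.00725). Over all alternatives tried its adjusted p ran from 0.00725 to 0.367, and this comparison supports no call.

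LIS differed most between arrays of phr3, whose mean was 890 with an SD of 1120. The log2 difference of phr3 from WT was 1.27 (95% interval -1.02 to 3.57, limma adjusted p = 0.709). Without phr3 replicate 3 it was -0.036, so the direction rests on that array. The log2 difference of phr3 from phr1 was 1.96 (interval -0.33 to 4.26, limma adjusted p = 0.461), and that of phr1 from WT was -0.69 (interval -2.98 to 1.61, limma adjusted p = 0.897).

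CPS4, MAS and the brighter DTC1 probe set cannot be compared by size among WT, phr1 and phr3, since signals at or below background have no order. In phr3 against phr1, limma gave them adjusted p of 0.536, 0.883 and 0.858. As almost all of those signals were at background, these values say nothing about a change. In these 3 genotypes CPS4 was above background on 0 of 9 arrays, and MAS on 1, a phr3 array. DTC1 was above background on 1 phr1 and 1 phr3 array. A change below background was not detectable in either single mutant.

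Other genes of labdane phytoalexin synthesis were taken from a list of 22 names. Of these, 14 matched 13 genes, 12 had a probe set and 10 passed the filter. In phr123 against WT, 7 of the 10 rose, 1 fell and 2 were not called, against 20.5% of all probe sets called higher and 21.0% called lower. The median log2 difference of the 10 was 1.35, against 0.016 over all probe sets tested. Without the array labelled phr123 replicate 1, 8 rose and 1 fell.

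The genes that rose were the synthase gene CPS2 and 6 P450 genes. CYP701A8, a P450 of the kaurene oxidase family that acts on phytoalexin precursors, read 408.8, 412.1 and 424.5 in WT and 4381.9, 4393.7 and 4892.3 in phr123, a rise of 11-fold (log2 3.45, limma adjusted p = 3.3e-10). CYP99A2, a P450 of the momilactone route, read 60.6, 110.8 and 54.8 in WT, 1 of them not above background, and 737.4, 993.2 and 890.5 in phr123 (log2 3.60, limma adjusted p = 9.2e-05). In neither gene did the WT and phr123 arrays overlap. CYP99A3, its close relative on the same route, rose from 158 ± 37.1 to 355 ± 28.0 (log2 1.19, limma adjusted p = 0.0042).

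CPS2, the synthase of ent-copalyl diphosphate for phytoalexins and so upstream of DTC1, rose from 195 to 770 ± 362 (log2 1.88, limma adjusted p = 0.0066). The P450 genes of the CYP76M family also rose: CYP76M7 by a log2 difference of 1.51 (limma adjusted p = 8.3e-05), CYP76M5 by 2.11 (limma adjusted p = 0.0052) and CYP76M8 by 1.11 (limma adjusted p = 0.0071). The name CYP76M7 came from a synonym of LOC4341447, which is not among the neighbours of DTC1 compared below, so that identity is uncertain. The CYP76M8 probe set is of a design that may share sequence with relatives, and CYP76M5 was not above background on 2 of the 3 WT arrays. CYP71Z6, the close relative of CYP71Z7, went the other way, from 717 ± 50.1 to 429 ± 193 (log2 -0.83, limma adjusted p = 0.0166). That fall was not called without WT replicate 3, phr123 replicate 2 or phr123 replicate 3, with limma adjusted p of 0.0566, 0.0849 and 0.0538.

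The remaining 4 genes of the list are named for completeness, after their values were seen. KSL10, a diterpene synthase of the oryzalexin route, lay below the filter, with 7.2, 4.7 and 63.3 in WT and 977.5, 854.3 and 749.6 in phr123, at least 14.8-fold higher. KSL4, the syn-pimaradiene synthase that acts after CPS4, also lay below it, with 31.6, 2.3 and 46.3 in WT and 24.9, 174.6 and 146.0 in phr123, so those groups overlapped. KSL5, another diterpene synthase, had 103 in WT and 102 in phr123 (log2 -0.05, limma adjusted p = 0.945). CYP76M6 had 2 probe sets that disagreed: the brighter gave a log2 difference of 0.77 (limma adjusted p = 0.0546), called when the array labelled phr123 replicate 1 was left out (limma adjusted p = 0.0377). The means of the other over WT, phr1, phr3 and phr123 were 17.5, 10, 48.8 and 1051, so it passed the filter only through phr123, and it was at least 18-fold higher there than in WT.

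In phr1 against WT 1 of the 10 list genes fell and 0 rose, with a median log2 difference of -0.48, and in phr3 0 were called, with a median of -0.19. At shares of 0.934% and 1.99% called over all probe sets, counts this low show nothing about the list. The gene that fell in phr1 was CYP701A8, with 272.5, 282.7 and 236.5 against 408.8, 412.1 and 424.5 in WT (log2 -0.66, limma adjusted p = 0.0299). It was not called when eBayes was run without a trend (limma adjusted p = 0.0799), in the fit of those 2 genotypes alone (0.118) or with the repeat number as a block (0.0530). The call was also lost without any 1 of the 6 WT and phr1 arrays (0.0610 to 0.109), or without phr123 replicate 2 or 3 (0.0605 and 0.0538).

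**Figure D2:**
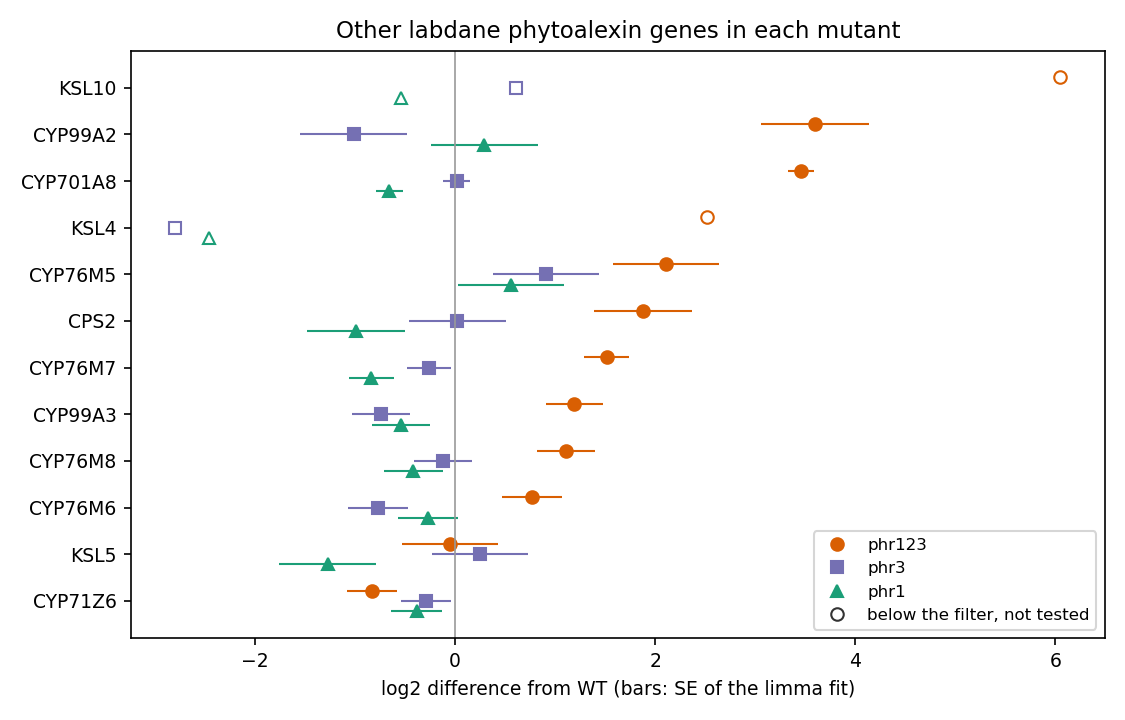
Log2 difference of each mutant from WT for the genes of the labdane phytoalexin list, by gene, with bars for the SE of the limma fit and open symbols for KSL10 and KSL4, which lay below the filter and were not tested. With the brightest probe set of each gene, CYP701A8 lies at 3.45 and CYP99A2 at 3.60 in phr123, and CYP71Z6 lies on the low side at -0.83.

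The lists of steps before and beside the phytoalexin branch had 6, 5 and 1 tested genes, against 20.5% of all probe sets called higher and 21.0% lower. With so few genes, their counts are no result about these steps. Of 6 tested gibberellin synthesis genes, which draw on the same precursor, 2 rose: CPS1, the copalyl diphosphate synthase for gibberellins (107 to 281, log2 1.36, limma adjusted p = 0.0015), and KAO, kaurenoic acid oxidase (log2 1.35, limma adjusted p = 0.0017). KS1, the kaurene synthase, was called lower by a small amount (log2 -0.36, limma adjusted p = 0.0323). That call held under 14 of 21 alternatives, with limma adjusted p from 0.0169 to 0.289, and was lost without any 1 of the 3 WT arrays, phr123 replicate 1 or phr123 replicate 2. Of 5 tested genes of the plastid precursor pathway, ISPE rose (365 to 883, log2 1.28, limma adjusted p = 2.4e-05) and ISPF fell (log2 -0.70, limma adjusted p = 2.8e-05), while 3 were not called. Quantile normalization called 3 of these 5 higher and 1 lower. HMGR3, a reductase of the cytosolic mevalonate pathway, fell from 1450 ± 148 to 233 ± 88.6 (log2 -2.70, limma adjusted p = 1.3e-07) and was the 1 tested gene of its list. HMG1, another reductase gene of that pathway, lay below the filter and differed the other way, with 38.4, 67.1 and 41.5 in WT and 262.1, 297.7 and 293.2 in phr123. In phr1 and phr3 no gene of these lists was called, against 0.934% and 1.99% of all probe sets.

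The list of regulators of phytoalexin synthesis and defence had 14 names, of which only 4 matched a gene. Of these 4 regulators, 3 rose in phr123, against 20.5% of all probe sets. WRKY62, a WRKY transcription factor known as a repressor of rice defence, read 416.9, 185.6 and 298.9 in WT and 4570.3, 4800.4 and 4730.4 in phr123 (log2 4.04, limma adjusted p = 1.3e-08). WRKY76, a related repressor, rose by a log2 difference of 2.08 (limma adjusted p = 0.00011), and the mitogen-activated protein kinase gene MPK6 rose by 0.96 (limma adjusted p = 4.1e-07). The name MPK6 came from a synonym of LOC4349225, so that identity is uncertain. Outside the terpenoids, T5H, the hydroxylase that makes serotonin from tryptamine, rose from 901 ± 241 to 7085 ± 582 (log2 3.01, limma adjusted p = 5.6e-08) and the pathogenesis-related gene PBZ1 rose by 1.72 (limma adjusted p = 1.3e-07). These were the 2 tested genes of their list, the only 2 matched from its 12 names. None of these 6 genes was called in phr1 or phr3, against 0.934% and 1.99% of all probe sets. PBZ1, however, was lower on each phr3 array than on any WT array (log2 -0.45, limma adjusted p = 0.109) and was called without phr3 replicate 3 (log2 -0.64, limma adjusted p = 0.00427). BZIP79, the regulator not called in phr123, is named after its values were seen. It lay near background, with 70.7, 35.7 and 20.3 in phr1 and 36.8, 67.1 and 64.9 in phr3. Its lack of a call in the single mutants therefore says nothing about a change.

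The list counts were also taken without the array labelled phr123 replicate 1. Then 2 gibberellin genes were higher and 0 lower, 1 plastid precursor gene was higher and 1 lower, and HMGR3, 3 regulators and both genes of the last list kept their calls. The log2 differences were 3.48 for CYP701A8, 3.71 for CYP99A2, 2.25 for CPS2, -2.99 for HMGR3, 4.06 for WRKY62 and 2.94 for T5H. CPS1 had 1.17 and KAO 1.23, so these genes moved little with that array.

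Markers of the sampled organ moved as well. From 15 shoot marker names 5 genes were measured. All 5, each by its brightest probe set, fell in phr123, with a median log2 difference of -0.65. Among them was PORB, a chlorophyll synthesis enzyme (log2 -1.16, limma adjusted p = 1.6e-06). The share over all probe sets was 21.0%, but the markers were far brighter than most, with WT means from 17877 to 103727. Small differences were called among them, such as -0.31 for CAB2R. The share called among probe sets as bright was not taken. The other tested RBCS probe sets disagreed, with log2 differences of -1.21 (limma adjusted p = 7.0e-06) and -0.13 (limma adjusted p = 0.573). With quantile normalization or with median-centred arrays all 5 were still on the low side and 3 were called, and without the array labelled phr123 replicate 1 4 were called. Their summed signal ranged over 295077 to 300991 on WT arrays, 297006 to 316080 on phr1 arrays, 257195 to 307195 on phr3 arrays and 200005 to 233593 on phr123 arrays, and none was at background. Of 5 measured root markers 4 were tested and 1, a share near the 20.5% of all probe sets, rose: NAAT1, an enzyme of iron uptake (log2 0.99, limma adjusted p = 0.0135), with 8225.6 on the array labelled phr123 replicate 1 and 2894.9 and 2766.9 on the other phr123 arrays. Without that array the log2 difference of NAAT1 was 0.48 (limma adjusted p = 0.00184). The summed root marker signal ranged over 3125 to 3310 on WT arrays and 3810 to 4141 on phr1 arrays. It ranged over 3126 to 3741 on phr3 arrays and 3908 to 9645 on phr123 arrays. NAAT1 was the brightest root marker in every genotype and weighed most in these sums. Its mean was 2027 for WT and 2111 for phr3, against 2684 for phr1 and 4629 for phr123. NRT2.2 and IRT1 went the other way in phr123, by log2 differences of -0.89 and -0.63, without a call (limma adjusted p = 0.387 and 0.0614). LSI1 differed by 0.14 (limma adjusted p = 0.535), and the median of the 4 tested was -0.24. LSI2, a silicon transporter of roots, was not above background on any array. The log2 ratio of the 3′ to the 5′ GAPDH control, a sign of RNA integrity, was 2.35 ± 0.144 in WT and 1.69 ± 0.135 in phr123 (SD, n = 3). The part of these differences in the phr123 values above was not tested.

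The members lie in 3 places of the genome, a property the choice did not use. In the gene order of the RefSeq assembly ASM3414082v1, MAS is the 4th gene after CPS4 on chromosome 4, CYP71Z7 is the 3rd gene after DTC1 on chromosome 2, and LIS lies elsewhere on chromosome 2. These first 2 places are the known rice gene clusters for momilactones and phytocassanes, so their neighbours overlap with the labdane list. The 10 genes on each side were compared, members left out, and their counts in phr123 stand against 20.5% of all probe sets called higher and 21.0% lower.

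Around CPS4, 4 of 19 neighbours were tested, and 2 rose in phr123, CYP99A3 and CYP99A2, with a median log2 difference of 0.69, and 2 also without the array labelled phr123 replicate 1. Around DTC1, 8 of 19 were tested, 4 rose and 1 fell, with a median of 0.94, and 5 rose and 1 fell without the array labelled phr123 replicate 1. Those that rose were CYP76M5, CYP76M8, CPS2 and LOC4329723, and the one that fell was CYP71Z6, the gene next to DTC1. LOC4329723, which has no symbol in the files, read 193.6, 307.0 and 248.3 in WT and 1400.7, 1634.0 and 1473.5 in phr123 (log2 2.61, limma adjusted p = 3.8e-06). CYP71Z6 thus lies between DTC1 and CYP71Z7, which were both chosen as high in phr123.

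Around LIS, 11 of 20 neighbours were tested, 4 rose and 1 fell, with a median of 0.22. Without the array labelled phr123 replicate 1, 3 rose and 1 fell, and 3 also rose with median-centred arrays, with no filter and with no trend. LOC4328132, the 9th gene after LIS, rose from 5052 to 17140 (log2 1.76, limma adjusted p = 6.6e-09), and LOC4328127 and SDH3-1, a succinate dehydrogenase subunit gene next to LIS, rose by 0.68 (limma adjusted p = 0.00032) and 0.39 (limma adjusted p = 0.00099). Rac6, a small GTPase gene, fell from 4108 to 978 (log2 -2.07, limma adjusted p = 3.3e-10). In phr1 the only neighbour called at any of the 3 places was ARP9, next to CPS4 and named after its values were seen (log2 -0.76, limma adjusted p = 0.0232). That call was lost in the fit of those 2 genotypes alone (limma adjusted p = 0.0845) and with the repeat number as a block (0.0504). It was also lost when replicate 1 or 2 of WT or of phr1 was left out (0.0757 to 0.106). In phr3 no neighbour was called. At shares of 0.934% in phr1 and 1.99% in phr3 called over all probe sets, these counts show nothing about the neighbours.

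**Figure D3:**
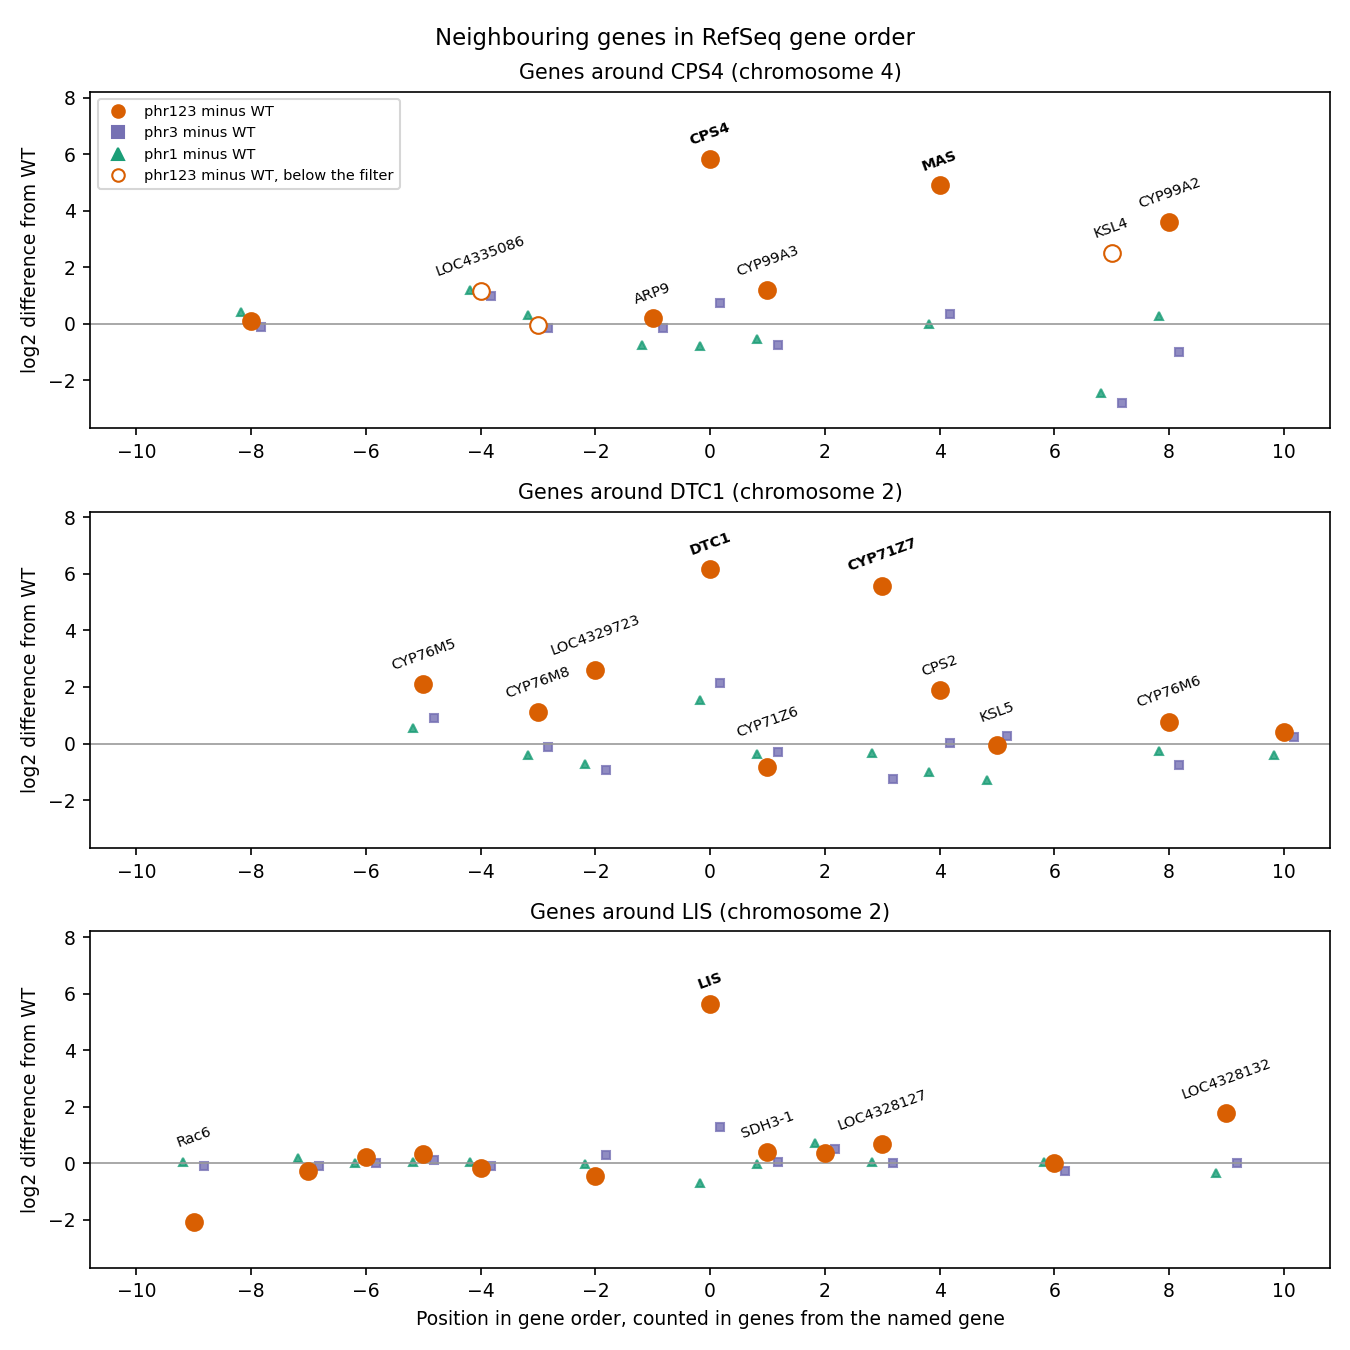
Log2 difference from WT of the genes around CPS4, DTC1 and LIS in RefSeq gene order, by number of genes from the member named, for each mutant, with open circles for phr123 values below the filter. The members were chosen as high in phr123, and each neighbour is shown by its brightest probe set. In phr123 CYP99A2 lies at 3.60 near CPS4, LOC4329723 at 2.61 near DTC1 and Rac6 at -2.07 near LIS.

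For each member the 3 named genes with the most similar profile were taken, by the mean absolute difference of log2 signal over the 12 arrays after each probe set was centred on its own WT mean, among 2667 probe sets with 1 gene and a symbol. For CYP71Z7 these were LOX1.1 (0.70), Cht2 (0.77) and CM-LOX2 (0.78), which are 2 lipoxygenase genes and a chitinase gene. Cht2 had means of 629 in WT and 14015 in phr123, and LOX1.1 had 32.1 and 1653. For MAS they were pinA (0.54), OSE727A (0.59) and Cht2 (0.69). OSE727A (0.88), LOX1.1 (0.90) and pinA (1.03) stood nearest to CPS4. The LOX1.1 mean was 27.4 for phr1 and 27.1 for phr3. Like its WT mean of 32.1, both lay under the filter signal of 49.4 and the lowest background level of 51.0. Outside phr123 the likeness of LOX1.1 to CYP71Z7 and CPS4 therefore cannot be told from background. Signals of CPS4, MAS and the brighter DTC1 probe set were themselves almost all at background outside phr123. The likeness of any gene to these 3 probe sets in WT and the single mutants therefore cannot be told from background either.

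The profiles nearest to DTC1 were those of CYP76M6 by its dimmer probe set (1.04), the potassium transporter gene HAK5 (1.12) and RAA1 (1.39). For LIS they were OSE727A (0.88), pinA (1.01) and the jasmonate repressor gene JAZ9 (1.07). The means of JAZ9 over WT, phr1, phr3 and phr123 were 88.3, 65.8, 432 and 1923, and those of LIS were 148, 135, 890 and 7274. In both genes phr3 had the second highest mean. For LIS that mean came from arrays of 43.1, 465.6 and 2160.2, and without phr3 replicate 3 the log2 difference from WT was -0.036. The likeness rests mainly on the 3 phr123 arrays, the ones that chose the members.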

How the data were processed

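Each deposited value is a linear signal intensity of 1 probe set on 1 array. The authors made these intensities with MAS5, per the submitters' processing notes, with no version given in the sources used here. Left out were 123 AFFX and 64 reporter controls, and 8 values of 0 were set to 0.1. No further scaling was applied before log2. Probe sets with a mean log2 signal at or above the median of all (5.63, a signal of 49.4) were kept, 28597 of 57194. A model with 1 mean per genotype was fitted across all 12 arrays in R 4.3.3 with limma 3.58.1 (lmFit, eBayes with a trend, Benjamini-Hochberg over all probe sets kept), and was checked on simulated data. As no label says what the biological repeats share, the p-values cover only the spread seen between these arrays, and 3 arrays per genotype limit the precision.

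Where all arrays of the dimmer genotype were at or below background, "at least N-fold" sets the mean log2 signal of phr123 against the dimmer arrays' background level. Other folds are ratios of geometric means. The brightest probe set stood for a list gene. Names came from the array annotation and, as it mostly gives locus numbers, from the synonyms of the RefSeq table of assembly ASM3414082v1, used for names and gene order only. The names MCS, MPK3 and CERK1 matched several genes and were left out, and a list of 8 other terpene synthases matched none. Names without a match numbered 8 of 22 for labdane phytoalexins, 5 of 11 for gibberellins and 13 of 21 for plastid precursors. They numbered 14 of 17 for mevalonate, 8 of 14 for regulators and 10 of 12 for other defence. For shoot markers they numbered 9 of 15, and for root markers 3 of 10. The counts cover only the matched part of each list.

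The members and lists were chosen with earlier results of these data known. Text names were set by rule: all members, up to 8 labdane list genes, up to 3 of each other list and 4 neighbours per place by smallest adjusted p in phr123, and 3 genes nearest in profile per member.

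Same-numbered repeats did not deviate together (correlations of -0.046 to 0.032 in 18 pairs), so the numbers were not used as pairs. Alternatives were other scalings, filters, a pseudocount, moderation, sample sets, a replicate block, leaving out each array, all probe sets of a list and other background levels.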

Additional observations from a re-analysis of the deposited data

Results flagged for a closer look

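One reporter control sequence, which was itself tested in no comparison above, had more signal in phr123 than in the other genotypes. Its brightest probe set read 373.5, 432.4 and 458.8 in phr123, a mean of 421.57, against 119.0, 33.7 and 13.7 in WT and 5.4 to 103.6 in the single mutants. This sequence is among the controls that set the background level. With it left out, an alternative chosen after the signal was seen, CPS4 was at least 19.0-fold, DTC1 at least 13.5-fold and MAS at least 18.8-fold higher in phr123 than in WT.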

How the results depend on the processing

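No member was called in phr1 against WT or phr3 against phr1 under the alternatives run. CPS4, DTC1 and MAS gave no value with the filter at the 75th percentile. With log2(signal + 16) the log2 differences of phr123 from WT were 4.84 for CPS4, 4.75 for DTC1 and 4.36 for MAS, against 5.81, 6.16 and 4.90, and the MAS difference in phr1 turned to 0.10. With the median of the reporters as background, the bounds became folds of 5.81, 6.16 and 4.90 on the log2 scale. Leaving out 1 array at a time gave log2 differences of phr123 from WT of 5.11 to 6.46 for CPS4, 5.49 to 6.86 for DTC1, 4.60 to 5.16 for MAS, 5.09 to 5.97 for CYP71Z7 and 5.45 to 5.77 for LIS. The direction turned for MAS (-0.43 to 0.85), CYP71Z7 (-0.83 to 0.049) and LIS (-1.44 to 0.31) in phr1, for LIS in phr3 (-0.036 to 2.79), and for MAS (-0.51 to 0.88) and DTC1 (-0.83 to 1.38) between phr3 and phr1. Members called in phr3 numbered 0 to 1. Calls over all probe sets, 267 in phr1, 569 in phr3 and 479 between them, ran from 128 to 384, 331 to 718 and 162 to 580. With arrays centred on their medians they were 298 in phr3 and 278 between phr3 and phr1, without a trend 121, 299 and 169, and with only the 2 genotypes compared 294 between phr3 and phr1. The labdane gene and the CPS4 neighbour called lower in phr1 were 0 with only the 2 genotypes compared and with the replicate number as a replicate block, 0 to 1 when arrays were left out, and for the labdane gene 0 without a trend. The replicate block changed no other call named here; it is no pairing, as 1 of 12 arrays correlated best with its own number. With the filter at the 75th percentile, which tests fewer genes, 2 labdane genes, 0 CPS4 neighbours and 0 DTC1 neighbours rose in phr123. Quantile normalization gave 2 LIS neighbours lower. When arrays were left out, labdane and DTC1 neighbour genes lower in phr123 numbered 0 to 1, as did LIS neighbours lower in phr1. Apart from the filter, which acts by its construction, the causes were not tested. Signals near background limit CPS4, DTC1 and MAS outside phr123.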
